A study of Mus musculus with 4 samples.

Results

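The semaphorins, plexins, neuropilins, ephrins and Eph receptors were examined in RNA sequencing of brain septal tissue. Genes were taken by symbol (Sema, Plxn, Efna or Efnb at the start, Epha or Ephb followed by a digit, or Nrp1 or Nrp2), which gave 50 of the 15409 gene rows. They were 19 semaphorins, 9 plexins, 2 neuropilins, 7 ephrins, 12 Eph receptors and Plxna4os1, an RNA antisense to Plxna4. Sema3g, Efna4, Epha1 and Epha2 were not among the rows and were not analysed here.

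Of the 4 libraries, 2 came from WT mice and 2 from TCRb-/- mice, in which the T cell receptor has no beta chain and T cells that need it are missing. Every mouse went through 30 min of restraint in a DecapiCone on 3 days, and tissue was taken 1.5 h after the end of restraint, so no group was unstressed. Each library was a pool of 4 to 5 mice, and each of 2 experiments gave 1 library of each genotype. The replicate number is the experiment. The sources used here do not give strain, sex or age. P-values measure the spread between pools. With genotype as the only term that spread includes the difference between experiments, and with experiment as the only term the difference between genotypes. The comparison of experiments sets 1 experiment against 1 other. A single value compared between 2 and 2 libraries cannot give an exact permutation p below 0.333.

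Library totals lay between 19988137 and 26210790 reads. Levels are in CPM, the reads of a gene scaled to a fixed library size. Trbc2 encodes a constant part of the missing beta chain. It had 169 and 86 reads in WT and 0 in TCRb-/- replicates 1 and 2, where 0 reads allow a level of up to 0.122 and 0.150 CPM. All 7 septum markers were listed, and Zic1, a transcription factor of septal neurons, had between 34.6 and 51.5 CPM. Markers of neighbouring tissue were also abundant and differed between libraries. The 8 striatum markers summed to 3595 and 2233 CPM in WT replicates 1 and 2, and to 3989 and 897 CPM in the TCRb-/- pair. In the same order, the 6 cortex and hippocampus markers summed to 261 and 41.9 CPM in WT and to 207 and 40.7 CPM in TCRb-/-, and the 7 choroid plexus markers to 1275 and 4096 CPM and to 2091 and 6744 CPM. No marker of these lists was at 0 in any library. In pooled tissue, fewer cells of a type and less RNA per cell cannot be told apart.

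Semaphorins are ligands that steer growing axons and shape synapses. The class 3 proteins are secreted and act through neuropilins, which bind the ligand, and plexins, which carry the signal into the cell. Most other classes are held in the membrane and bind plexins directly. Ephrins are membrane-bound ligands of the Eph receptor tyrosine kinases, and signals pass in both directions across the contact. A ephrins are held by a lipid anchor and mainly bind EphA receptors, while B ephrins span the membrane and mainly bind EphB receptors. EphA4 also binds B ephrins. In the adult brain these proteins act on dendritic spines, myelinating cells and vessels as well as on axons.

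Levels were compared between genes as CPM per kilobase of merged exons. Efnb3, a transmembrane ephrin of forebrain neurons and myelinating cells, had the highest level of the 50 genes, a mean of 88.1 CPM per kilobase. In CPM it had 302 and 275 in TCRb-/- and 255 and 288 in WT. Sema6b, a transmembrane ligand of A-type plexins, was next at 25.7 CPM per kilobase, followed by Efna3, an anchored ephrin, at 16.9 and Sema4a, a class 4 semaphorin, at 15.4. Sema4f of the same class had 8.64 and the anchored ephrin Efna2 had 6.76 CPM per kilobase. Efnb3, Sema6b, Efna3, Sema4a, the kinase-dead receptor gene Ephb6 (15.2) and Epha10 (10.3), whose kinase domain is also predicted to be inactive, were the 6 genes that exceeded 10 CPM per kilobase. Among the receptors of semaphorins, Nrp1, a co-receptor of class 3 semaphorins, had 8.52 CPM per kilobase, Plxnb2 had 4.35 and Plxnc1, the receptor of Sema7a, had 4.30.

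Ephrin receptors with an active kinase were led by Epha4 at 9.26 CPM per kilobase, with Epha5 at 6.63, Ephb1 at 6.56 and Epha7 at 6.21. The secreted class 3 semaphorins were low, between 0.492 CPM per kilobase for Sema3d and 3.42 for Sema3f. The mean levels of 9 genes lay under 1 CPM per kilobase. Ephb4, a receptor of Efnb2 in vessels, was the lowest coding gene, with 39 and 40 reads in WT and 50 and 30 reads in TCRb-/-. Its exact 95% counting intervals (1.51 to 2.68 CPM and 1.01 to 2.14 CPM in TCRb-/-, 1.06 to 2.03 and 1.28 to 2.44 in WT) overlapped in all 4 libraries. By CPM, Sema4b was the next lowest, between 2.02 and 3.21 CPM. Plxna4os1 had between 7 and 11 reads. It lies within Plxna4 on the other strand. The sources used here do not say whether the counting used strand, so its reads and those of Plxna4 cannot be told apart.

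**Figure D1:**
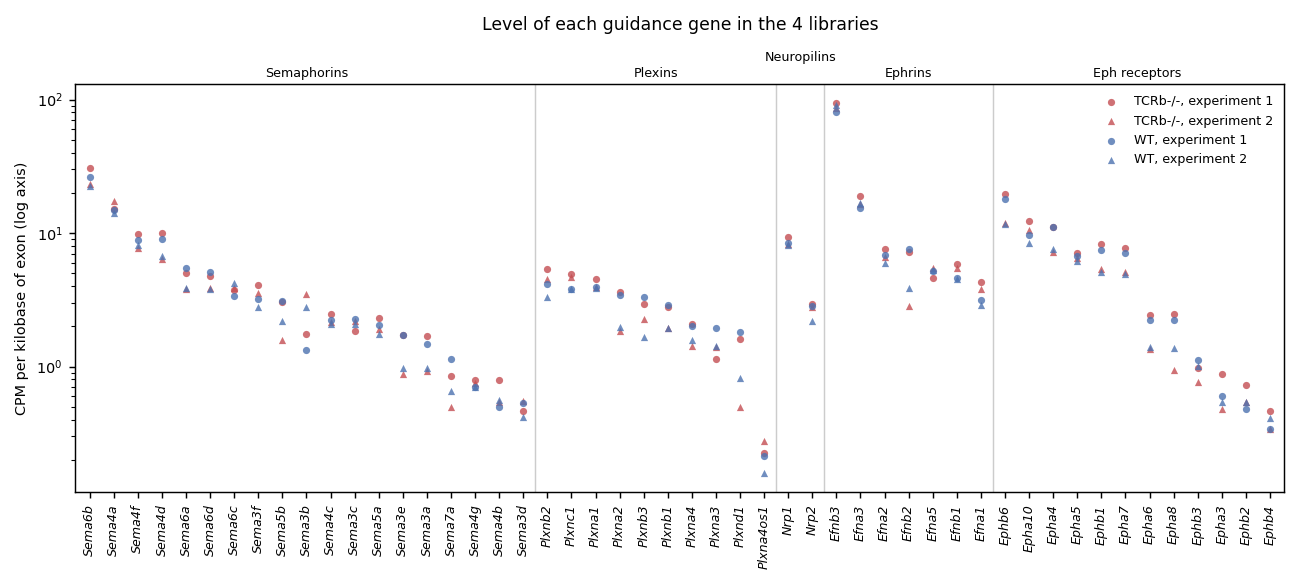
Level of each of the 50 genes in the 4 libraries, in CPM per kilobase of merged exons on a log axis, ordered by family and mean level (colour for genotype, circles for experiment 1, triangles for experiment 2). Efnb3 stands highest at a mean of 88.1, and in genes such as Plxnd1, Efnb2 and Epha8 both triangles lie below both circles.

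The comparison of genotypes asked which guidance genes differed in stressed septal tissue without the T cell receptor beta chain. At least 1 CPM on average was reached by 49 of the 50 genes, which were tested; Plxna4os1 was not. In limma, 0 of 49 passed the adjusted threshold of 0.05, where 0% of all 13912 genes tested passed, and 0 had an unadjusted p under 0.05 (0.309% of all genes). This fit leaves the difference between experiments in its error. The median SE of the 49 genes was 0.21, against 0.11 with the experiment as a block. Even Trbc2, with 0 reads in both TCRb-/- libraries, was not called, so this count of 0 cannot show that guidance genes are unchanged. With the experiment as a block, again 0 passed (0.0144% of all genes, Trbc2 and Ttr), and the smallest adjusted p was 0.796. The log2 differences, TCRb-/- minus WT on the log2(CPM + 1) scale, ran from -0.37 for Plxnd1 to 0.39 for Plxnb2. Of the 49 genes, 33 had a difference above 0 (50.3% of all genes) and 16 one below 0 (49.7%). Their median was 0.07, against 0.00 over all genes.

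Within the 2 experiments, which share no library, 20 of 49 genes were higher in TCRb-/- in both (27.0% of all genes) and 8 were lower in both (24.5%). Both TCRb-/- libraries lay above both WT libraries for 9 of 49 genes (9.76% of all genes) and below them for 2 (8.04%). In the blocked fit, an unadjusted p under 0.05 came with a higher value in TCRb-/- in 7 genes and with a lower value in 0 (3.16% and 2.48% of all genes; 5.64% in either direction). The 7 were Plxnb2, Plxnc1, Epha10, Sema3f, Efnb1, Efna1 and Sema3b. None of the 7 passed the adjusted threshold. The median depended on the libraries: it was -0.06 without TCRb-/- replicate 1, -0.03 without WT replicate 2, 0.18 without WT replicate 1 and 0.24 without TCRb-/- replicate 2.

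Among the receptors, Plxnb2 encodes a receptor of class 4 semaphorins (chromosome 15, 89155549 to 89180788, minus strand, GRCm38). Its values were 27.4 and 21.8 CPM in WT (experiment 1, then 2) and 35.5 and 29.6 CPM in TCRb-/-, so that TCRb-/- was higher within each experiment and the genotypes did not overlap. The log2 difference was 0.39 (SE 0.09 with the block, 95% interval 0.17 to 0.61; limma p 0.00343, adjusted 0.796). Plxnc1 had 35.9 and 34.2 CPM in TCRb-/- and 27.6 and 27.9 CPM in WT. Its libraries of 1 genotype were close to each other, and the difference was 0.33 (interval 0.11 to 0.54, adjusted limma p 0.848 with the block). Epha10 had 31.3 and 27.0 CPM against 24.6 and 21.5 CPM, with differences of 0.33 and 0.32 in experiments 1 and 2.

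Among the ligands, Sema3f, the secreted semaphorin that acts through Nrp2, had 14.2 and 12.5 CPM in TCRb-/- and 11.2 and 9.79 CPM in WT, a difference of 0.32 in each experiment. Efnb1 had 19.0 and 17.7 CPM against 15.0 and 14.7 CPM. Efna1, an anchored ephrin found in vessels and other tissues, had 7.81 and 6.95 CPM against 5.76 and 5.28 CPM. In each of these 3 ligand genes the genotypes did not overlap, and the adjusted limma p with the block was 0.848. All 7 choroid plexus markers exceeded their WT values in each experiment too, and the ependymal markers summed to 109 and 128 CPM in TCRb-/- and 83.7 and 118 CPM in WT. Their part in the values of these 6 genes was not tested.

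Toward lower values in TCRb-/-, Plxna3, an A-type plexin of class 3 signalling, had 7.97 and 9.71 CPM against 13.6 and 9.84 CPM in WT. The genotypes did not overlap, but the difference was -0.70 in experiment 1 and -0.02 in experiment 2, so that WT replicate 1 carried it. Ephb3 had 5.53 and 4.40 CPM against 6.37 and 5.72 CPM. Plxnd1, Efnb2 and Sema5b were lower in TCRb-/- mainly in experiment 2, by -0.58, -0.42 and -0.43, against -0.16, -0.08 and -0.02 in experiment 1. In that experiment the striatum markers also stood lower in TCRb-/-, with a median difference of -1.26 against 0.15 in experiment 1. Their part in these values was not tested. Sema7a, a lipid-anchored semaphorin with immune as well as neural roles, had 2.81 and 1.65 CPM against 3.74 and 2.15 CPM, with 33 to 98 reads per library.

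For many genes the genotypes were close. The block gave a 95% interval within 0.5 of 0 on the log2 scale for 29 of 49 genes. The share over all genes is not given here. Epha5 had 72.2 and 65.5 CPM in TCRb-/- and 68.3 and 61.9 CPM in WT, and Epha4 had 70.4 and 45.7 CPM against 70.2 and 47.9 CPM. The precision differed between genes, with blocked SEs from 0.07 to 0.21, and over all 49 genes the interval bounds reached from -0.77 for Plxna3 to 0.70 for Efna1. Ephb2, a receptor at synapses, had 7.97 and 5.90 CPM against 5.27 and 5.95 CPM, higher in TCRb-/- replicate 1 than in the other libraries. Ephb6 lies on chromosome 6 from 41605482 to 41620509, 57.1 kb beyond Trbc2 with none of the listed genes between them. It had 73.3 and 44.4 CPM in TCRb-/- and 67.3 and 44.1 CPM in WT, a difference of 0.07 (interval -0.12 to 0.25 with the block).

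**Figure D2:**
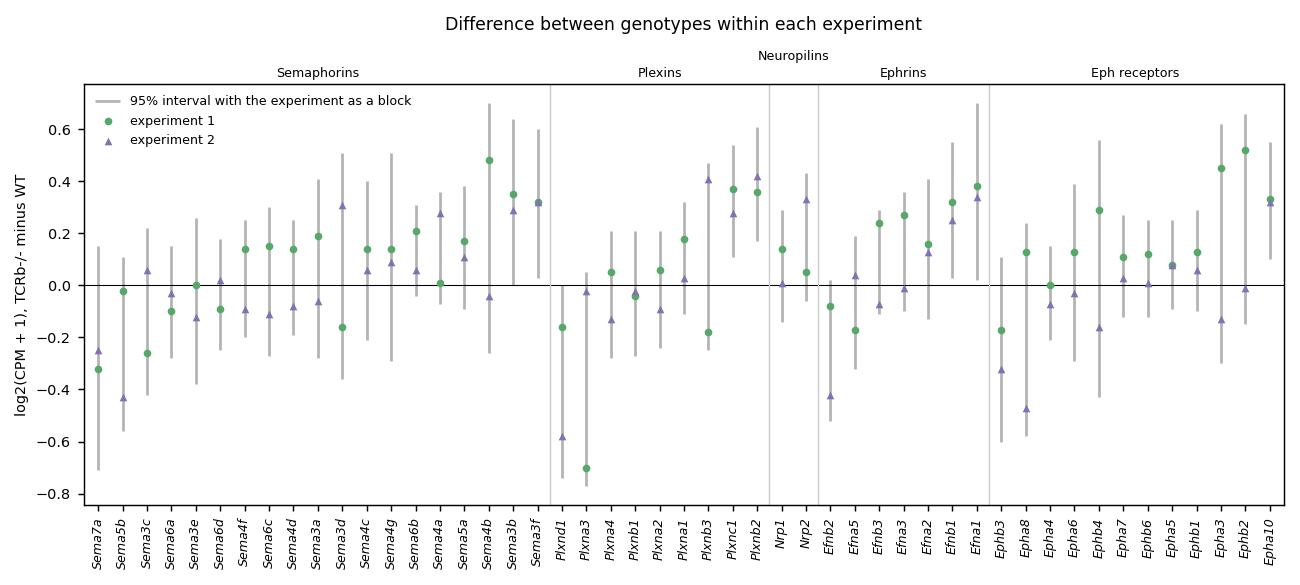
Difference between TCRb-/- and WT in log2(CPM + 1) for the 49 genes tested, in experiment 1 (circles) and experiment 2 (triangles), with the 95% interval of the limma fit that has the experiment as a block (grey). Plxnb2, Plxnc1, Epha10, Sema3f, Efnb1 and Efna1 have both points above 0, and Plxna3 lies at -0.70 in experiment 1 and -0.02 in experiment 2.

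In limma, 20 of 49 genes passed the adjusted threshold (23.7% of all genes): 19 fell from experiment 1 to experiment 2 (14.7%) and 1 rose (8.95%). The median log2 difference of the 49, experiment 2 minus 1, was -0.22, against -0.03 over all genes. In all 20 genes that passed, both libraries of experiment 2 lay on one side of both libraries of experiment 1. The test on these same libraries favours such genes, so this is not further support for the calls. Counted over all 49 genes, both libraries of experiment 2 were lower for 28 (37.2% of all genes) and higher for 3 (30.1%). Within both genotypes, 35 were lower in experiment 2 (42.2%) and 3 were higher (35.1%). The 19 fell by ratios of mean CPM from 1.24-fold to 2.62-fold. Each experiment holds both genotypes, and with genotype as a second term all 20 genes were called again.

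By family, 6 of 12 Eph receptors fell, with a median of -0.47, and 5 of 9 plexins, with a median of -0.44. Of the 19 semaphorins 7 fell and 1 rose (median -0.22). Among the 7 ephrins 1 fell (median -0.06), and neither neuropilin passed (median -0.16). Whether the families differ from one another was not tested.

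Plxnd1 encodes the plexin that binds Sema3e, with roles in vessels and in striatal connections (chromosome 6, 115954811 to 115995005, minus strand, GRCm38). It had 11.2 and 12.6 CPM in experiment 1 (TCRb-/-, then WT) and 3.45 and 5.64 CPM in experiment 2, a difference of -1.25 (SE 0.20, adjusted limma p 0.00827). Sema3e, its ligand, had 11.8 CPM in both libraries of experiment 1 and 6.05 and 6.66 CPM in experiment 2 (-0.80, SE 0.13, adjusted limma p 0.00860). Both the ligand and the receptor were thus lower in experiment 2 in each genotype.

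Efnb2, the ephrin shared by neurons and arterial vessels, lies on chromosome 8 from 8617434 to 8661242 (minus strand). It had 34.5 and 36.4 CPM in experiment 1 and 13.6 and 18.6 CPM in experiment 2, a difference of -1.11 (SE 0.14, adjusted limma p 0.00546). Epha8 had 11.6 and 10.5 CPM against 4.45 and 6.53 CPM (-0.91, adjusted limma p 0.0135). Of the other B ephrins, Efnb1 had a difference of -0.06 and Efnb3 of 0.02, so that Efnb2 was the only 1 of 3 that passed.

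Plxna2, an A-type plexin that takes part in class 3 and class 6 signals, had 39.9 and 38.1 CPM in experiment 1 and 20.4 and 21.7 CPM in experiment 2 (-0.86, SE 0.09, adjusted limma p 0.00386). Epha4 had 70.4 and 70.2 CPM against 45.7 and 47.9 CPM (-0.58, adjusted limma p 0.00520), and Epha7 and Ephb1 had differences of -0.55 and -0.57. Epha5, which is close to these receptors in level, had 72.2 and 68.3 CPM against 65.5 and 61.9 CPM and did not pass (-0.14, adjusted limma p 0.207). Epha6 fell as well (-0.67), as did Ephb6 (-0.66), the receptor gene beside Trbc2, from 73.3 and 67.3 CPM to 44.4 and 44.1 CPM.

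Among the plexins, Plxna4, Plxnb1 and Plxnb3 also fell, by 0.44, 0.53 and 0.64 on the log2 scale. Plxnb1 is the receptor of Sema4d, and Sema4d fell too, from 47.3 and 42.8 CPM to 30.2 and 31.8 CPM (-0.52, adjusted limma p 0.00907). Plxna1 and Plxna3, close relatives of Plxna2 and Plxna4, had differences of -0.10 and -0.09 and did not pass. The other semaphorins that fell were Sema3a (-0.65), Sema5b (-0.68), Sema6a (-0.44), Sema6b (-0.31) and Sema6d (-0.35). Sema3a signals through Nrp1, whose values were 33.4 and 30.1 CPM in experiment 1 and 29.6 and 29.4 CPM in experiment 2. Nrp2 had 30.3 and 29.4 CPM against 28.8 and 22.7 CPM. The integral membrane protein Sema5a had a difference of -0.23 (adjusted limma p 0.161), and Efna5, the main A ephrin of axon mapping, of 0.13 (0.416).

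Sema3b, a secreted semaphorin that acts through neuropilins, was the 1 gene that rose. It had 6.55 and 4.92 CPM in experiment 1 and 12.9 and 10.4 CPM in experiment 2 (0.91, SE 0.18, adjusted limma p 0.0124). The difference was 0.88 in TCRb-/- and 0.94 in WT. Sema3b did not pass without WT replicate 1, nor when limma was run without the mean-variance trend (adjusted p 0.0505). Choroid plexus markers rose alongside it, 6 of 7 past the threshold with a median of 1.33, and thalamus markers too, 6 of 7 with a median of 1.12. Of the 7 septum markers, 3 were called higher and 0 lower, with a median of 0.38. Of the 4 ependymal markers, 2 were called higher and 0 lower, with a median of 0.45. The part of these tissues in the Sema3b values was not tested.

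**Figure D3:**
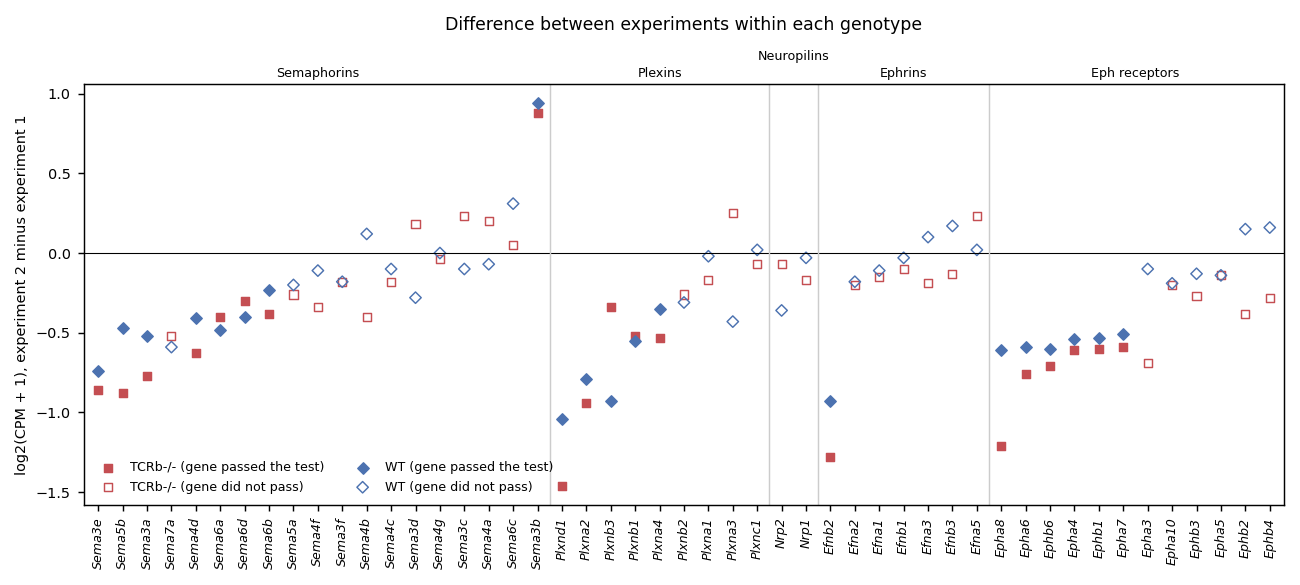
Difference between experiment 2 and experiment 1 in log2(CPM + 1) within TCRb-/- (squares) and WT (diamonds) for the 49 genes tested, ordered within families, with filled symbols for the 20 genes past the adjusted threshold in limma. Sema3b is the 1 filled pair above 0, and Plxnd1 and Efnb2 are the lowest filled pairs of the plexins and ephrins.

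The 2 genotypes share no library, so the change between experiments was seen in each of them separately. It had the same sign in both for 38 of 49 genes (77.6%, against 77.3% of all genes). The Pearson r was 0.773 across the 49 genes and 0.719 across all genes, which share the 4 libraries and are not replicates. Of the 19 genes that fell, 13 were lowest in TCRb-/- replicate 2 and 6 in WT replicate 2, the libraries of experiment 2. Over all 50 guidance genes the order was the other way, with 17 lowest in TCRb-/- replicate 2 and 21 in WT replicate 2. Of all 15409 genes, 4860 were lowest in TCRb-/- replicate 2 and 3285 in WT replicate 2. The 8 striatum markers were all lowest in TCRb-/- replicate 2. All 8 striatum markers and 5 of 6 cortex and hippocampus markers fell between experiments, with medians of -1.54 and -2.00. Endothelial and pericyte markers summed to 21.4 and 16.8 CPM in WT and to 23.6 and 15.5 CPM in TCRb-/-, with 0 of the 5 tested past the threshold. Without TCRb-/- replicate 2, 17 of the 20 genes still passed, as did 17 without WT replicate 2, 12 without TCRb-/- replicate 1 and 11 without WT replicate 1. The part of these other tissues and cells in the values was not tested.

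Exon length moved with the difference between experiments. Across 13552 genes with a length, longer genes were lower in experiment 2 (Spearman rank correlation -0.459), and guidance genes are long, with a median of 4793 bases against 3376 over all genes. Of the 25 longer guidance genes (4793 bases or more) 13 fell, and of the 24 shorter ones 6 did. The shares of all genes of these lengths that fell are not given here, so these counts are not particular to guidance genes. After a smooth trend on length had been subtracted, 11 of 49 genes were called lower (6.67% of all genes) and 1 higher (5.81%), and the median was -0.12. The 12 genes were Plxnd1, Plxna2, Efnb2, Epha4, Epha6, Epha7, Epha8, Ephb1, Ephb6, Sema3e and Sema4d, all lower, and Sema3b, higher. All 6 Eph receptors that fell kept the call. Plxna4, Plxnb1, Plxnb3, Sema3a, Sema5b, Sema6a, Sema6b and Sema6d no longer passed.

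**Figure D4:**
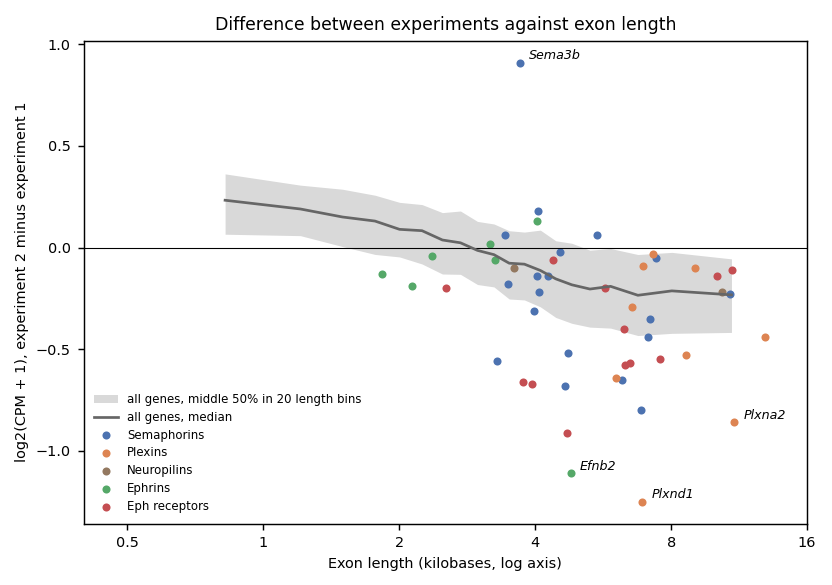
Difference between experiment 2 and experiment 1 in log2(CPM + 1) against exon length in kilobases (log axis) for the 49 guidance genes, with the median (line) and middle 50% (band) of all genes in 20 length bins. The line of all genes falls from 0.23 in the shortest bin to -0.23 in the longest, and Plxnd1, Efnb2 and Plxna2 lie below the band while Sema3b lies above it.

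Genes known to act with these receptors were counted from lists of partners. Over all genes tested, 14.7% fell and 8.95% rose between experiments, with a median of -0.03. Of 26 genes that act with ephrins and Eph receptors, 0 rose and 11 fell, with a median of -0.25. After the length trend was subtracted, 6 of them were called lower and 1 higher (6.67% and 5.81% of all genes), with a median of -0.05. Ngef, the exchange factor ephexin that acts with EphA4, fell from 609 and 580 CPM to 243 and 380 CPM (-0.97, adjusted limma p 0.0105). Sipa1l1 (-0.89), Kalrn (-0.68), an exchange factor of dendritic spines, and Chn1 (-0.63), the chimaerin downstream of EphA4, fell too. Of 28 genes that act with semaphorins and plexins, 3 fell and 1 rose, with a median of -0.09. After the length trend was subtracted, 1 was called lower and 2 higher, with a median of 0.05. Those that fell were Nrcam (-0.56), a neuropilin-associated adhesion molecule, Mical2 (-0.53) and Arhgef11 (-0.43). With the length trend subtracted, Mical2 (adjusted limma p 0.0804) and Arhgef11 (0.207) did not pass. The 1 that rose was Rnd1, a GTPase that binds plexins, from 24.3 and 25.3 CPM to 43.3 and 34.4 CPM. Values of Rac1 stayed between 413 and 447 CPM in the 4 libraries.

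Of 22 tested genes of other guidance systems, 10 fell and 1 rose (median -0.34, with the shares of all genes as above). After the length trend was subtracted, 4 were called lower and 1 higher, with a median of -0.15. Robo2, a receptor of Slit proteins, fell from 23.9 and 25.7 CPM to 7.60 and 11.4 CPM (-1.32, adjusted limma p 0.00549), and its ligand gene Slit3 by 1.16 on the log2 scale. Dcc, the netrin receptor, had 6.63 and 5.57 CPM against 2.30 and 2.95 CPM. Ntng1, which is also on the thalamus list, rose from 25.5 and 28.0 CPM to 62.4 and 36.0 CPM. By genotype, 0 genes of these 3 lists passed with or without the block, with medians of 0.00, -0.05 and 0.01 for semaphorin partners, ephrin partners and other guidance genes.

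Promoters of 3 genes are shown because these genes had the lowest experiment differences (Plxnd1, Efnb2) or the highest genotype difference (Plxnb2). Each is the 250 bases before the RefSeq start site in GRCm38.p6, 5′ to 3′ on the strand of the gene, with capitals for matches to the motifs searched. They lie at chr6:115995006-115995255, chr8:8661243-8661492 and chr15:89180789-89181038, all on the minus strand.
Plxnd1: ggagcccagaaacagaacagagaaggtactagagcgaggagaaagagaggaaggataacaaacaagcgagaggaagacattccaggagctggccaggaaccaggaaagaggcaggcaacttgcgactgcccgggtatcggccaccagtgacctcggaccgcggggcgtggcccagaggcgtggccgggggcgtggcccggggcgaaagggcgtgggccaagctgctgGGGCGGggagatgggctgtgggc
Efnb2: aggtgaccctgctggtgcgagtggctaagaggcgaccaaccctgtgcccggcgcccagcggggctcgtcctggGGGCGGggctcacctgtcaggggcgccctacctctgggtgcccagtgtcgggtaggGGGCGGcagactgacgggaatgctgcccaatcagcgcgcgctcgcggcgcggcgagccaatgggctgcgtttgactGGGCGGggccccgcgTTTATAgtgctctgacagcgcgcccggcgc
Plxnb2: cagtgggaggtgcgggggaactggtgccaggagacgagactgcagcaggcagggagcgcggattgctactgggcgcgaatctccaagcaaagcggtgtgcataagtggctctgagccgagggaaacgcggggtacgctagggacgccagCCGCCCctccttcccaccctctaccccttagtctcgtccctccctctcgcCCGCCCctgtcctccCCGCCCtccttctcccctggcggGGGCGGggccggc

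The motifs searched on both strands were GGGCGG (the GC box bound by Sp1), TATAAA (the TATA box), TGACGTCA (the cyclic AMP response element), GCGTGGGCG (the EGR site) and CACGTG (the E-box). RefSeq start sites were found for 43 of the 50 genes, with 57 promoters. GGGCGG was in 43 of the 57 (75.4%, against 32.7% of 32851 promoters of all genes), and TATAAA in 1 of 57 (12.4% of all), which was that of Efnb2. The Efnb2 match reads TTTATA on the strand of the gene, so TATAAA lies on the other strand. Plxnd1 had 1 GGGCGG match, Efnb2 had 3 and Plxnb2 had 4. TGACGTCA was in 0 of the 57 promoters (1.55% of all), GCGTGGGCG in 2 (0.536%) and CACGTG in 3 (6.02%). The guidance promoters had a median GC content of 64.4% against 52.4% over all promoters. These matches are a description of the letters in the window and were not set against the measured differences.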

How the data were processed

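RNA of septal tissue lysate, cleared by centrifugation, was made into SMARTer ultra-low-input libraries and sequenced on an Illumina HiSeq2500, per the labels' protocols. HISAT2 2.1.0, SAMtools 1.3, HTSeq 0.9.1, R 4.0.5, limma 3.46.0 and the build mm10 are named in the submitters' processing notes. The sources used here state neither the annotation nor how rows were chosen. The deposited values were log2 CPM, computed with 0.5 added to each read count and 1 to the total. Library totals were recovered from them, and 100% of values then gave whole reads within 0.001 reads. The deposited unit is log2, so limma and no count model was used. The 17 spike-in rows were left out.

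The tests ran on log2(CPM + 1), a scale that shrinks differences of low genes, for genes averaging at least 1 CPM, with limma 3.58.1 in R 4.3.3 (empirical Bayes with a mean-variance trend, two-sided, Benjamini-Hochberg over all genes, threshold 0.05), with genotype or experiment as the only term. The fit was tested on simulated data with changes larger than any genotype difference of the guidance genes, so that test does not show whether differences of their size are detected. Exon lengths came from GENCODE on GRCm38. Counting intervals are exact Poisson intervals at 95% and, like the floor of 3 reads, cover counting error only, since the reads carry no molecular identifiers. Python 3.11.15 with scipy 1.17.1 was used for other steps.

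The labels name the experiment by the same number as the replicate, which pairs the libraries. Across genes, libraries with the same number deviated together from their genotype's mean (correlation 0.719). Replicates differed beyond sampling noise, with chi-square values of 52.2 (TCRb-/-) and 30.3 (WT) per degree of freedom. Alternatives were pseudocounts, filters, scalings, the deposited values as they stand, no trend, the replicate block, a length trend, voom weights and leaving out each library.

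The genes, lists, tests and naming rule were chosen with earlier results of these data known. A fixed set of guidance genes was named whatever their values. Others were picked by their values under the naming rule. For genotype, these were up to 6 genes in each direction with the smallest p with the block among those changed the same way in both experiments. Between experiments, they were up to 6 in each direction with the largest called difference. For levels, they were the 3 with the highest level per kilobase in each family and the 3 lowest. The remaining genes were named outside the rule, after their values were seen.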

Additional observations from a re-analysis of the deposited data

Results flagged for a closer look

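In 2 genes the experiments differed in opposite directions, each by more than counting error alone allows. The difference between experiments was not tested. Efnb3 was higher in TCRb-/- than in WT in experiment 1 (log2 difference 0.24) and lower in experiment 2 (-0.07). From experiment 1 to experiment 2 it changed by -0.13 in TCRb-/- and by 0.17 in WT. Plxnb3, a plexin of oligodendrocytes, differed between genotypes by -0.18 in experiment 1 and by 0.41 in experiment 2. Of 49 genes, 21 had opposite signs of the genotype difference in the 2 experiments, and 2 of these were counted as beyond counting error in both. The sign was the same in 28 of 49 (57.1%, against 51.6% of all genes). The share of all genes that lie beyond counting error in this way is not given here, so the 2 genes have no baseline.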

How the results depend on the processing

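Voom weights and settings that combine the block with another choice were chosen after seeing the data. With all libraries, 448 of 455 genotype values and 336 of 366 experiment values kept their direction and their side of the threshold or stayed close to the reported count or median. The number of guidance genes called by genotype was 0 in every fit run. Over all genes the count went from 0 to 2 under the replicate block, and was 2 also when quantile normalization or voom weights were combined with it. It was 0 when the block was combined with the deposited log2 values or with no trend. The replicate block took Trbc2 (-2.59) and Ttr past the threshold and changed no other call. Plxna2, near 0, changed sign with the block and voom weights (0.01). Between experiments, moderation without a trend gave 629 genes and 11 guidance genes, without Epha8, Plxna4, Plxnb3, Sema3b, Sema4d, Sema5b, Sema6a, Sema6b and Sema6d. Subtracting the length trend gave 1692 genes, 12 guidance genes and a median of -0.12, and it reversed Epha5 (0.09), Ephb2 (0.12), Nrp2 (0.01), Plxna1 (0.12), Plxna3 (0.13), Plxnc1 (0.19), Sema3d (0.16), Sema4g (0.13) and Ephb4 (0.08), none of them called. Quantile normalization moved the median to -0.14, with the median of all genes at 0.02, and 18 of the 20 calls remained, without Sema6b and Sema6d. A filter at 10 CPM left 14 of the 20, since the others lie under it. Why calls moved without a trend was not tested.

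Leaving out 1 library leaves 1 sample in a group, assumed to vary like the other group, and sets the experiments or genotypes out of balance. By genotype this gave 0 to 47 genes and 0 guidance genes, with 47 without TCRb-/- replicate 1, and a guidance median from -0.06 to 0.24. Between experiments it gave 1406 to 3390 genes, 11 to 18 guidance genes and a median from -0.34 to -0.16. The genotype differences that changed sign ranged from -0.18 to 0.05 for Efna5, from -0.89 to 0.39 for Efnb2, from -0.34 to 0.28 for Epha4, from -0.22 to 0.37 for Epha7, from -0.20 to 0.39 for Ephb1, from -0.01 to 0.16 for Nrp1, from -0.48 to 0.46 for Plxna2, from -0.30 to 0.23 for Plxna4, from -0.30 to 0.24 for Plxnb1, from -1.09 to 0.36 for Plxnd1, from -0.32 to 0.45 for Sema3a, from -0.28 to 0.35 for Sema4d, from -0.66 to 0.21 for Sema5b, from -0.23 to 0.17 for Sema6d and from -0.58 to 0.01 for Sema7a. The experiment differences that changed sign ranged from -0.10 to 0.14 for Efnb3, from -0.37 to 0.14 for Ephb2 and from -0.44 to 0.26 for Plxna3. Depth sets a floor of 0.114 to 0.150 CPM per library, and among the genes tested, Ephb4, Sema7a and Sema4b had the lowest read counts.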
